A study of Mus musculus with 8 samples.

Results

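The 40 genes described here encode collagens and other structural proteins of the extracellular matrix, from fibrillar collagens to basement membranes, elastic fibres, small proteoglycans and adhesive glycoproteins. They were taken by symbol through the Ensembl IDs of the count table and made up 40 of its 49585 genes. RNA was profiled from the entire uterus, conceptuses included, of pregnant Foxp3DTR females aged 8 weeks at day 8 of pregnancy (E8). In both groups the Foxp3 gene drove a receptor for diphtheria toxin, by which the toxin kills Foxp3-expressing regulatory T cells, and the sires were BALB/c. The DT group (replicates 1, 3, 4 and 5) was given 1 µg of diphtheria toxin into the peritoneum at E1, E3, E5 and E7, and the PBS group (replicates 1, 2, 4 and 6) was given PBS on the same schedule. The labels state an 85% loss of regulatory T cells under this regimen, and they also call the injections daily. Each library came from 1 female.

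The matrix is built in layers. Fibrillar collagens (types I, III and V) assemble from 3 chains into cross-linked fibrils that carry tension, whose surfaces are coated by fibril-associated collagens and small leucine-rich proteoglycans. Basement membranes are thinner sheets in which laminin trimers and a type IV collagen network are tied together by nidogens and perlecan. In the uterus, fibrillar matrix is characteristic of the myometrium and the stroma outside the decidua, whereas decidual cells, vessels and muscle cells surround themselves with basement membrane components, and the parietal endoderm of the conceptus lays down a thick laminin and type IV collagen membrane.

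Stretches from the start regions of 2 gene pairs are shown first, because each pair encodes chains of 1 protein whose levels are compared below. Col4a1 and Col4a2 lie head to head on chromosome 8 and their annotated first exons share 22 bases, given in capitals. Col6a1 and Col6a2 lie in the same orientation on chromosome 10, with 85161 bp between their gene models. For these genes the bases directly upstream of the annotated gene are shown, and capitals mark a GC box (GGGCGG, read on either strand). The sequences are RefSeq's, build GRCm38.p6.
Col4a1 and Col4a2, chr8:11312801-11312830, plus strand: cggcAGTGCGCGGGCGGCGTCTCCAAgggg
Col6a1, chr10:76726169-76726294, minus strand: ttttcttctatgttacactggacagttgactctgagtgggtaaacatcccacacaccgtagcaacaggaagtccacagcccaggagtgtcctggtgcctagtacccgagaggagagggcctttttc
Col6a2, chr10:76623631-76623880, minus strand: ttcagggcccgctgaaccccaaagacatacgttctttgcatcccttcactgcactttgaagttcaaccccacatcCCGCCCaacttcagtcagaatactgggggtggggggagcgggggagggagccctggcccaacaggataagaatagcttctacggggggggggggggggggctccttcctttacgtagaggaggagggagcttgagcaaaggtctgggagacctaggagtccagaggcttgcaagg
The shared stretch of the type IV pair holds a GC box, and so does the 250-base Col6a2 stretch. The Col6a1 stretch, of 126 bases only, holds none, so the pair is shown over unequal lengths. Upstream windows of 250 bases were matched for 27 of the 40 genes. A gene was counted when any of its windows held the motif on either strand. GGGCGG was found for 18 of these 27 genes (66.7%), against 35.3% of all 26994 genes with windows. Those 26994 were not restricted by gene type or number of windows. CCAAT was found in 9 (33.3%, against 37.5%) and TATAAA in 3 (11.1%, against 14.3%), the 3 being Col3a1, Tnc and Postn. The match of a motif describes these letters only.

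All 40 genes passed the filter on low counts, with total counts of 94794512 to 109847604 per library. Foxp3 itself did not separate the groups: it stood at 5.12, 5.09, 5.72 and 5.69 CPM (read counts scaled to a common library size, with TMM factors) in DT 1, 3, 4 and 5 and at 4.89, 4.36, 5.44 and 4.86 CPM in PBS 1, 2, 4 and 6. Its log2 fold change was 0.15 ± 0.10 (adjusted p 0.595, edgeR), so the groups are called DT-labelled and PBS-labelled. Uterine markers were present in every library, for example Myh11 of smooth muscle at 341 to 1097 CPM and Hand2 of stroma at 424 to 1056 CPM. Libraries of 1 group differed in their makeup. DT 1 had the lowest sum over 12 decidual markers, 4514 CPM against 8624 to 14752 CPM in the other 7, and the highest Myh11. Prl8a2, a decidual prolactin, alone went from 687 CPM in DT 1 to 8957 CPM in PBS 2, and over the other 11 markers the levels were 3827 CPM in DT 1 and 5732 to 6380.1 CPM in the other 7. PBS 1 and PBS 2 stood apart in markers of the conceptus: 706 and 1856 CPM over 19 trophoblast markers against 42.4 to 153 CPM in the other 6, and 44.1 and 318 CPM over 6 embryonic erythroid markers against 0.538 to 1.05 CPM. The titles carry suffixes of unstated meaning, each shared by 2 libraries of 1 group. The pairs are PBS 1 with PBS 2, PBS 4 with PBS 6, DT 1 with DT 3 and DT 4 with DT 5. No suffix occurs in both groups, so between the groups what it stands for cannot be told apart from the treatment. Within the PBS group, the 2 libraries that stood apart in conceptus markers are those that share 1 suffix. In whole-tissue RNA, fewer cells of a type and less RNA per cell cannot be told apart. Values without DT 1, PBS 1 and PBS 2 are given beside some results, and their absence elsewhere does not mean that a result held. Genes whose sign changed without these 3 libraries are listed in the closing section.

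The DT-labelled and PBS-labelled uteri were compared across all genes, to ask whether matrix expression differs when regulatory T cells are targeted. None of the 40 genes passed an adjusted p of 0.05 in edgeR's quasi-likelihood test, against 0.326% of all 22693 genes tested (0.322% higher and 0.00441% lower in DT). At an unadjusted p under 0.05, 1 gene was higher (Tnc) and 1 lower (Smoc1), against 4.72% and 3.98% of all genes (8.7% in either direction). DESeq2 called Smoc1 lower and none higher, against 0.256% and 1.21% of all genes, with 2 up and 3 down at an unadjusted p under 0.05, against 5.42% and 5.97% of all genes. Limma voom called none in either direction, against 0.225% higher and 0.00441% lower, with 2 up and 2 down unadjusted, against 5.25% and 2.76%. Of the fitted log2 fold changes (DT minus PBS), 22 were positive and 18 negative, from -0.45 to 0.83. Their median was 0.02, beside 0.01 for all genes tested. With libraries scaled by their totals alone, 30 were positive and 10 negative, with a median of 0.14 beside 0.12 for all genes.

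**Figure D1:**
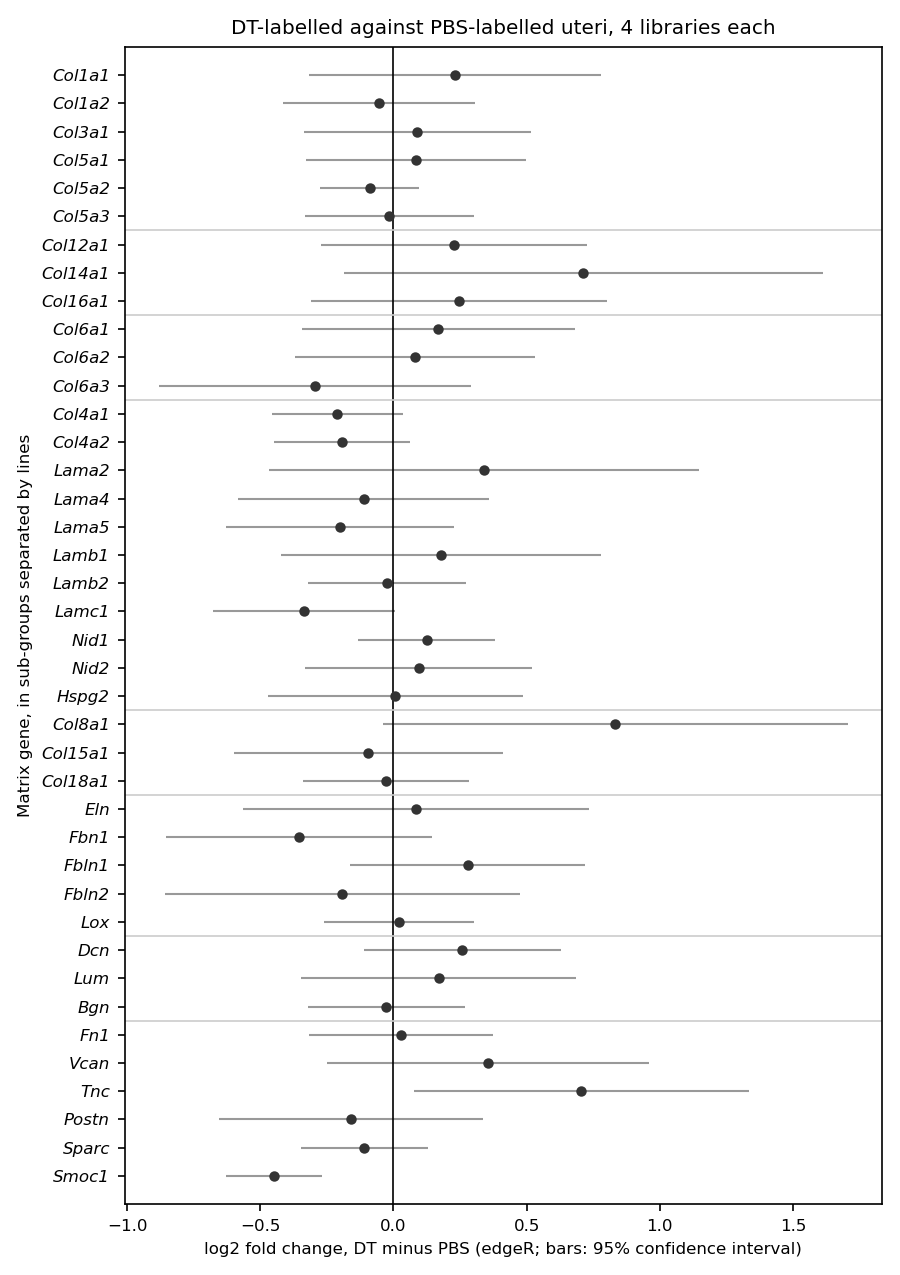
Log2 fold change of each matrix gene (x axis, DT minus PBS, edgeR), with points for the estimate, bars for the 95% confidence interval and lines between sub-groups. The intervals of Tnc and Smoc1 leave out 0 before adjustment for multiple testing, and the interval of Col8a1 is among the widest.

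Smoc1 (ENSMUSG00000021136, chr12:81026808-81186414, plus strand, GRCm38) had the smallest p of the 40 genes. It encodes a calcium-binding glycoprotein related to Sparc that is found at basement membranes and modulates BMP signalling. Its level was 98.2, 111, 107 and 112 CPM in DT 1, 3, 4 and 5 and 149.7, 155, 129 and 151 CPM in PBS 1, 2, 4 and 6. All 4 DT-labelled libraries lay below all 4 PBS-labelled ones, with PBS 4 the nearest to the DT group. The DT and PBS libraries averaged 107 ± 6.43 and 146 ± 11.5 CPM (SD, n = 4 each). The log2 fold change was -0.45 ± 0.08 (SE), with an adjusted p of 0.0826 in edgeR and 0.000127 in DESeq2. It held its direction when any 1 library was left out, at -0.50 to -0.41, with edgeR adjusted p from 0.0504 to 0.318. Without DT 1, PBS 1 and PBS 2 it was -0.35, with an adjusted p of 0.354.

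Lamc1 was the other gene whose groups did not overlap, so that 2 of 40 genes lay wholly lower and 0 wholly higher in DT, against 1.73% and 3.33% of all genes tested (5.06% in either direction). It lies at chr1:153218922-153332786 on the minus strand (ENSMUSG00000026478, GRCm38) and encodes the gamma-1 chain, which most laminin trimers share. Its values were 1493, 2304, 2123 and 2265 CPM in DT 1, 3, 4 and 5 and 2766, 2617, 2382 and 2564 CPM in PBS 1, 2, 4 and 6. DT 1 was far below the other 3 DT libraries, and the gap between DT 3 and PBS 4, the nearest libraries of the groups, was small beside it. The log2 fold change was -0.34 ± 0.15 and the adjusted p 0.571 (edgeR). It fell in size to -0.21 without DT 1 and to -0.15 without DT 1, PBS 1 and PBS 2.

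The 3 highest fitted differences belonged to Tnc, Col14a1 and Col8a1, none of them past the threshold. Tnc (chr4:63959785-64047015, minus strand, GRCm38), for tenascin-C, an adhesion-modulating glycoprotein of remodelling tissue, stood at 51.6, 33.2, 35.2 and 26.9 CPM in DT 1, 3, 4 and 5 and 17.6, 16.8, 34.5 and 21.2 CPM in PBS 1, 2, 4 and 6. PBS 4 lay among the DT libraries, and DT 1 was the highest. Its log2 fold change was 0.71 ± 0.27 (adjusted p 0.558, edgeR), 0.99 without PBS 4 and 0.19 without DT 1, PBS 1 and PBS 2. Col14a1 (chr15:55307750-55520803, plus strand), a fibril-associated collagen, stood at 855, 537, 665 and 465 CPM in the DT libraries and 293, 161, 626 and 459 CPM in the PBS libraries, and its log2 fold change was 0.71 ± 0.39 (95% confidence interval -0.19 to 1.61). PBS 1 and PBS 2 were the 2 lowest libraries, and without them and DT 1 the value was 0.03. Col8a1 (chr16:57624258-57754737, minus strand), a short-chain network-forming collagen and the lowest of the 40 genes per length, stood at 15.1, 14.3, 22.9 and 12.7 CPM in the DT libraries and 8.39, 3.84, 15.4 and 8.94 CPM in the PBS libraries. Its log2 fold change was 0.83 ± 0.38 (-0.04 to 1.71), and 0.46 without the same 3 libraries.

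**Figure D2:**
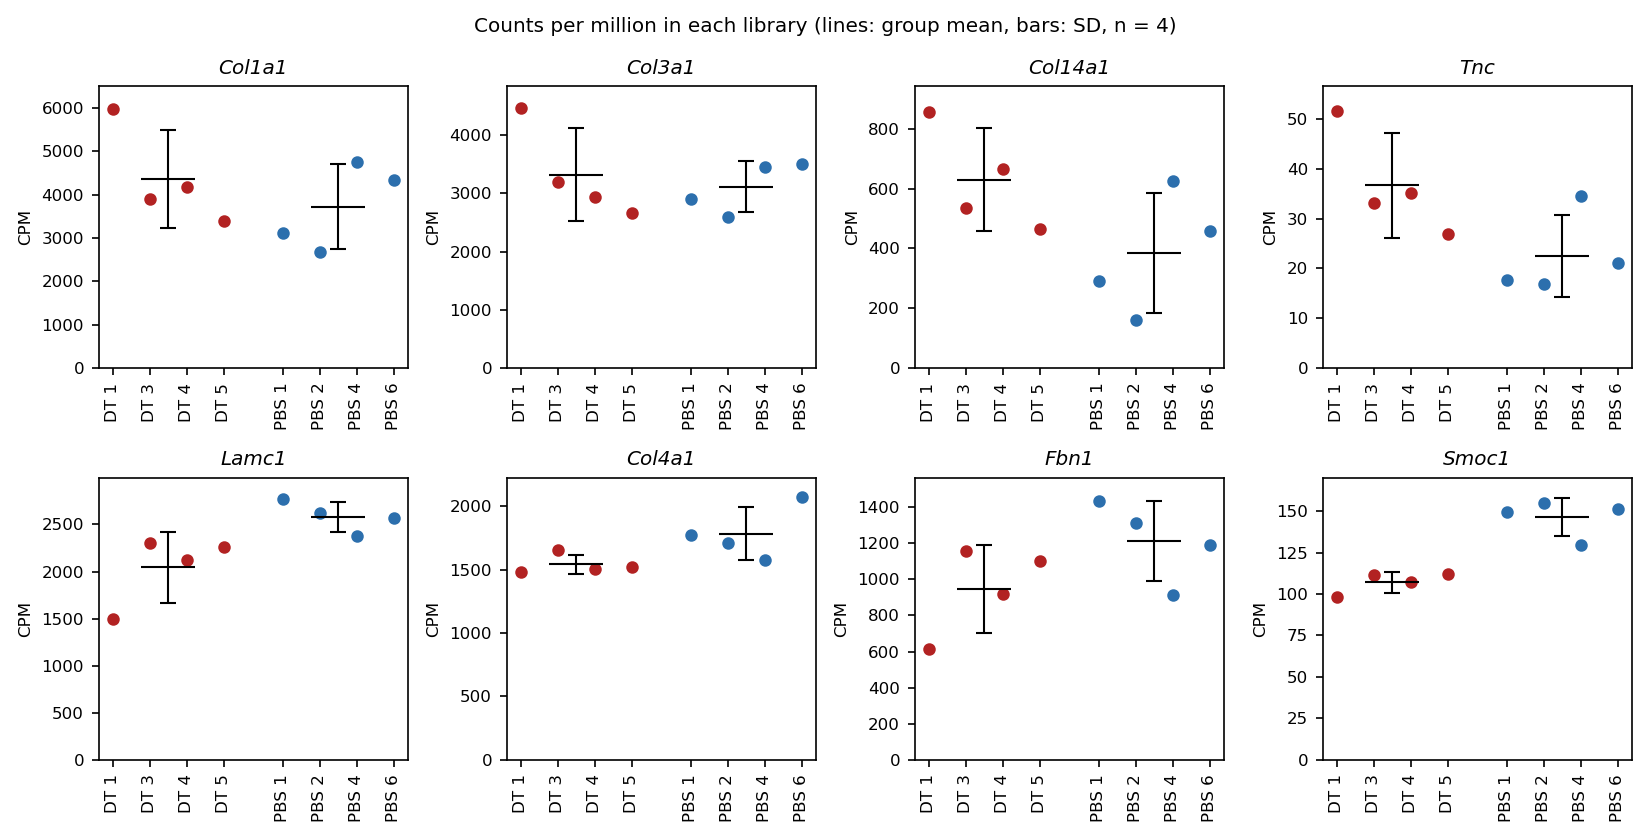
CPM in each library (points, y axis) for 8 matrix genes, with DT-labelled libraries left (red) and PBS-labelled ones right (blue), group means as lines and SD as bars (n = 4). The groups of Smoc1 and Lamc1 do not overlap, and in Col14a1 and Tnc the lowest points are PBS 1 and PBS 2.

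Fibrillar collagens include some of the most abundant matrix transcripts, and none passed the test between the groups (smallest adjusted p 0.653, edgeR). Col1a1, the alpha-1 chain of type I collagen, was measured at 5970.4, 3899, 4173 and 3398 CPM in DT 1, 3, 4 and 5 and 3112, 2679, 4749.8 and 4327 CPM in PBS 1, 2, 4 and 6. Col1a2, its partner chain, stood at 3015, 2533, 2290.0 and 2089.9 CPM in the DT libraries and 2410.0, 2128, 2703 and 3058 CPM in the PBS libraries. The highest library was DT 1 for Col1a1 and PBS 6 for Col1a2, and the ranges of the groups overlapped in both. Col3a1, which forms thin fibrils with type I collagen, stood at 4467, 3192, 2928 and 2668 CPM in the DT libraries and 2905, 2595, 3444 and 3508 CPM in the PBS libraries. DT 1 was again the highest, and PBS 2 the lowest. Log2 fold changes of these 3 genes were 0.23 ± 0.24, -0.05 ± 0.16 and 0.09 ± 0.19.

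Type V collagen starts and limits the width of type I fibrils. Its Col5a1 chain was measured at 507, 406, 392 and 326 CPM in the DT libraries and 324, 309, 459 and 446 CPM in the PBS libraries. Col5a2 varied least of all 40 genes, at 629.7, 603, 562 and 537 CPM in the DT libraries and 641, 632, 583 and 626 CPM in the PBS libraries, a ratio of highest to lowest of 1.19. Col5a3, unlike Col5a1, had DT 1 as its lowest library and stood at 65.1, 101, 87.7 and 86.9 CPM in the DT libraries and 84.1, 80.6, 79.5 and 101 CPM in the PBS libraries. The groups overlapped in all 3, with log2 fold changes of 0.08 ± 0.18, -0.09 ± 0.08 and -0.02 ± 0.14. The median over the 6 fibrillar collagens was 0.03. It was -0.25 without DT 1, PBS 1 and PBS 2, where 5 of the 6 were negative.

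The other fibril-associated collagens, Col12a1 and Col16a1, overlapped between the groups, at 183 to 264 CPM against 135 to 259.6 CPM and 85.5 to 162 CPM against 73.1 to 129.8 CPM (DT range, then PBS range). Both had DT 1 as their highest and PBS 2 as their lowest library. Decorin (Dcn), lumican (Lum) and biglycan (Bgn) bind fibrils and regulate their spacing. They ranged over 470.1 to 747 CPM against 429 to 566 CPM, 143 to 289 CPM against 142 to 207 CPM and 610.2 to 668 CPM against 508 to 779 CPM, with medians of the log2 fold changes at 0.17 for these 3 and 0.25 for the fibril-associated collagens.

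Type VI collagen forms beaded microfibrils around cells. Col6a1 stood at 1134, 731, 785 and 619 CPM in the DT libraries and 643, 540.2, 834 and 892 CPM in the PBS libraries, and Col6a2 and Col6a3 ranged over 606 to 1024 CPM against 566 to 893 CPM and 375 to 849 CPM against 547 to 847 CPM. DT 1 was the highest library for all 3 chains. Outside DT 1, Col6a3 was lower in the other 3 DT libraries (375 to 534 CPM) than in all 4 PBS libraries (547 to 847 CPM). Its log2 fold change was -0.29 ± 0.26 with all libraries and -0.56 without DT 1. Without DT 1, PBS 1 and PBS 2 it was -0.79, with an adjusted p of 0.234 (edgeR). Lama4, a laminin chain, was likewise lower in DT outside DT 1 (94.7 to 113 CPM against 115 to 149 CPM in PBS). The share of all genes that separate in this way was not counted.

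Among basement membrane genes, the type IV collagen chains had small negative fold changes that did not pass the test, and the groups overlapped. Col4a1 was measured at 1486, 1656, 1506 and 1519 CPM in DT 1, 3, 4 and 5 and 1773, 1714, 1578 and 2072 CPM in PBS 1, 2, 4 and 6. Col4a2 stood at 879, 1076, 955 and 993 CPM in the DT libraries and 1139, 1083, 967 and 1277 CPM in the PBS libraries. PBS 6 was the highest and DT 1 the lowest library for both. The log2 fold changes were -0.21 ± 0.11 (adjusted p 0.571) and -0.19 ± 0.11 (adjusted p 0.572, edgeR), and both stayed negative in every alternative run.

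Of the laminin chains besides Lamc1, Lama5 and Lamb2 were the most abundant. Lama5, the alpha-5 chain of vessel and epithelial laminins, stood at 1176, 2121, 1948 and 1995 CPM in the DT libraries and 2177, 2036, 1824 and 2273 CPM in the PBS libraries. Lamb2 stood at 860.5, 1079.8, 1200.2 and 962 CPM in the DT libraries and 1046, 914, 1026 and 1182 CPM in the PBS libraries. In both DT 1 was the lowest library, which for Lama5 lay at 1176 CPM with the other 7 at 1824 to 2273 CPM. The chains Lama2 (of muscle laminin), Lama4 (of vessel and muscle laminins) and Lamb1 went the other way in DT 1, their highest library, and ranged over 53.6 to 152 CPM against 43.2 to 84.2 CPM, 94.7 to 186 CPM against 115 to 149 CPM and 133 to 302 CPM against 142 to 214 CPM. Laminin chains thus split in DT 1, with 3 at their highest and 3 at their lowest.

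The linkers of the basement membrane overlapped as well. Nidogens Nid1 and Nid2, which bind laminin to type IV collagen, ranged over 541 to 689 CPM against 487 to 628 CPM and 123 to 138 CPM against 81.4 to 149 CPM, and perlecan (Hspg2) over 402 to 814 CPM against 496 to 655 CPM. Exons of Nid2 share 8.45% of their bases with Rtraf, so some of its reads may belong there. Col15a1 and Col18a1, collagens of the basement membrane zone, ranged over 215 to 412 CPM against 252 to 366 CPM and 129 to 192 CPM against 133 to 162 CPM. The median log2 fold change over the 11 basement membrane genes was -0.02. It was -0.17 without DT 1, PBS 1 and PBS 2, where all 11 were negative, and -0.18 without PBS 1 and PBS 2 alone.

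The fibrillar and basement membrane genes were then set against each other within a library, as the mean log2 CPM of the 6 fibrillar collagens minus that of the 11 basement membrane genes. This difference was 1.01, 0.96, 0.85 and 0.89 in DT 1, 3, 4 and 5 and 0.79, 0.82, 0.91 and 0.84 in PBS 1, 2, 4 and 6. The 2 highest values were DT 1 and DT 3, and PBS 4 lay above DT 4 and DT 5. Group means were 0.93 ± 0.07 and 0.84 ± 0.05 (SD, n = 4 each), a gap of 0.09, which went from 0.06 to 0.11 when 1 library was left out. Without DT 1, PBS 1 and PBS 2, a choice made after the values were seen, the means were 0.90 and 0.87 and the gap 0.03.

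Elastic fibres consist of elastin on a scaffold of fibrillin microfibrils. Fbn1, for fibrillin-1, stood at 616, 1156, 922 and 1103 CPM in the DT libraries and 1433, 1314, 912 and 1193 CPM in the PBS libraries, with a log2 fold change of -0.35 ± 0.22. It was lowest in DT 1 and highest in PBS 1, and PBS 4 lay within the DT range. Exons of Fbn1 share 20.1% of their bases with Gm9913. Elastin (Eln) ranged over 144 to 355 CPM against 196 to 319 CPM, fibulins Fbln1 and Fbln2 over 134 to 232 CPM against 114 to 157 CPM and 102 to 279 CPM against 191 to 281 CPM, and the cross-linking enzyme Lox over 279 to 386 CPM against 286 to 368 CPM. DT 1 was the lowest library for Eln, Fbn1 and Fbln2 and the highest for Fbln1 and Lox.

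Among the adhesive and matricellular genes, Sparc, a collagen-binding protein abundant in decidua and parietal endoderm, stood at 2137, 2587, 2330.0 and 2614 CPM in the DT libraries and 2744, 2561, 2422 and 2706 CPM in the PBS libraries. It varied little, and the groups overlapped. Fibronectin (Fn1), versican (Vcan) and periostin (Postn) ranged over 1276 to 1752 CPM against 1125 to 1679 CPM, 219 to 514 CPM against 211 to 283 CPM and 271 to 466 CPM against 308 to 465 CPM.

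**Figure D3:**
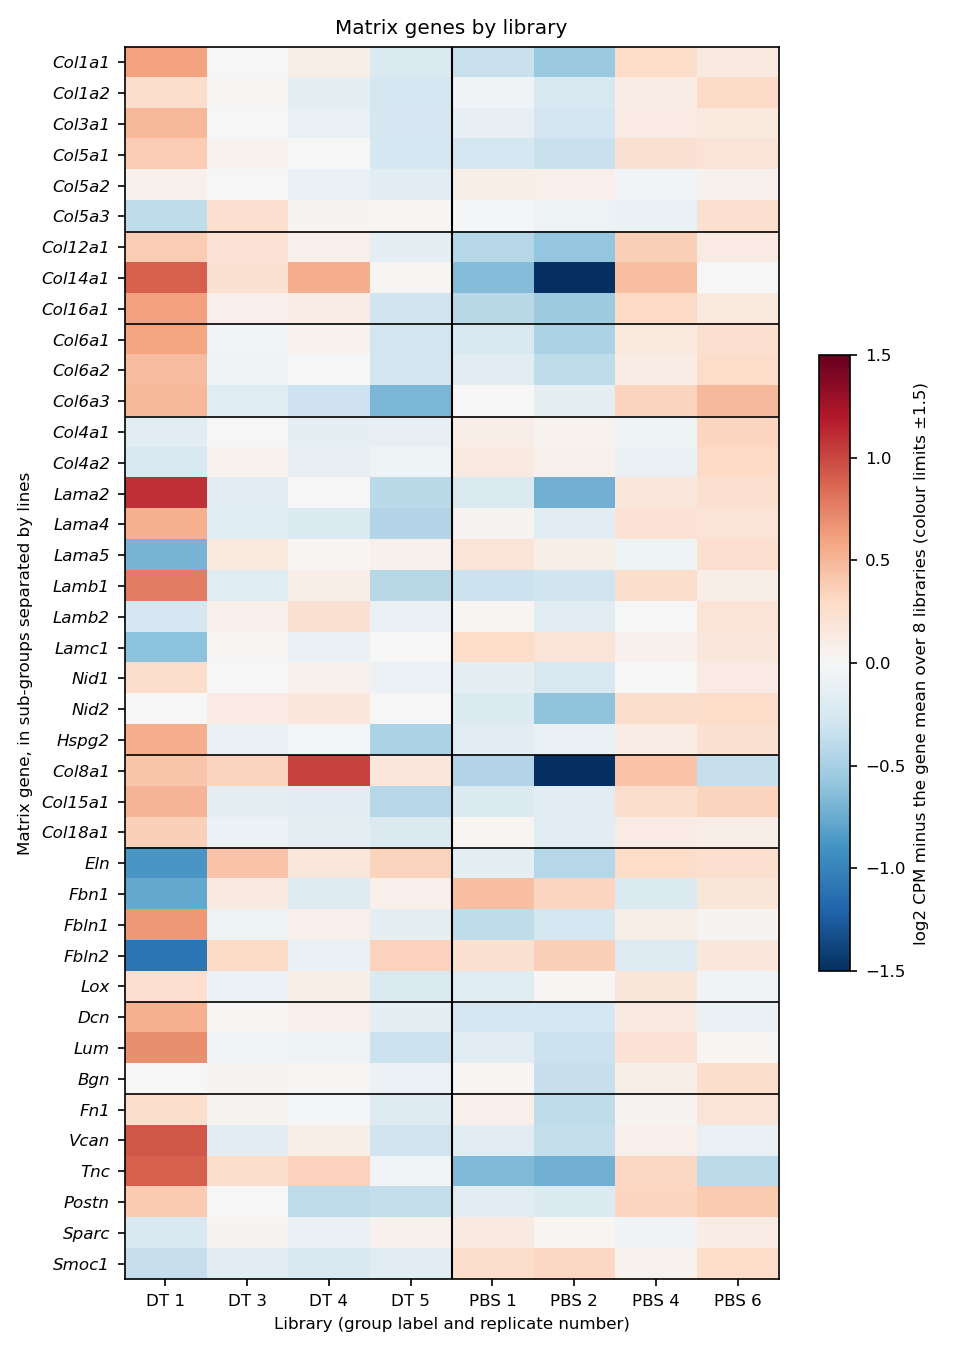
Log2 CPM of the 40 matrix genes (rows, in sub-groups) in each of 8 libraries (columns), as the difference from the gene's mean over all libraries. Colours stop at ±1.5. The DT 1 column holds both the strongest red and the strongest blue among DT libraries, and PBS 2 is the lowest library for 18 genes.

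The spread of the 40 genes between libraries was then described. The ratio of the highest to the lowest library had a median of 1.88 over the 40 genes, from 1.19 (Col5a2) to 5.97 (Col8a1). Over all 10578 genes with a mean of at least 10 CPM the median was 1.36. The within-group SD on the log2 scale had a median of 0.30 over the 40 genes and 0.14 over those 10578. DT 1 was the highest library for 24 of the 40 genes (60%), beside 27.2% of all genes tested, and the lowest for 11 (27.5%, beside 27.6%). PBS 2 was the lowest for 18 (45%, beside 18.8%). The 40 genes took 4.20, 3.22, 3.21 and 2.78% of all counts in DT 1, 3, 4 and 5 and 2.78, 2.56, 3.53 and 3.68% in PBS 1, 2, 4 and 6.

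Some muscle, decidual and fibroblast markers also differed between these libraries. Myh11, smooth muscle myosin, stood at 1097, 528, 569 and 374 CPM in the DT libraries and 384, 341, 849 and 713 CPM in the PBS libraries. DT 1, PBS 4 and PBS 6 were its 3 highest libraries, as they were for 16 of the 40 genes, among them Col1a1, Col5a1, Col6a1, Lama2 and Lum, beside 5.16% of all genes tested. Myh11 was singled out from its list after its values were seen. The summed level of all 10 muscle markers ran from 4177 to 5328 CPM in DT and from 4085 to 5331 CPM in PBS, with desmin (Des), at 1799 to 2850 CPM, lowest in DT 1. The 12 decidual markers summed to 4514, 11571, 9581 and 11928 CPM in the DT libraries and 13266, 14752, 8624 and 13098 CPM in the PBS libraries. DT 1 was lowest for this sum and for 11 of the 40 genes (27.5%, beside 27.6% of all genes tested). Lama5, Fbn1 and Fbln2 were among the 11, and all 3 were next lowest in PBS 4, as was the sum. Without Prl8a2 the sum was 3827 CPM in DT 1 and 5732 to 6380.1 CPM elsewhere. None of the marker genes is among the 40, no list was at 0 throughout, and the part of tissue makeup in these values was not tested. Endothelial markers ran from 1017 to 1429 CPM in DT and from 1037 to 2069 CPM in PBS, and fibroblast markers from 3171 to 4501 CPM and from 3977 to 4943 CPM. The fibroblast sum was lowest in DT 1 and highest in PBS 1. Dpt and Pdgfrb of that list, but no other gene of it, had the same 3 highest libraries as Myh11. The 9 parietal endoderm markers summed to 1333 to 1483 CPM in DT and 1382 to 1782 CPM in PBS. Most of that sum came from Pdgfra and Fst, which the uterus also expresses, and Gkn2 of the same list was at or near 0 in every library.

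**Figure D4:**
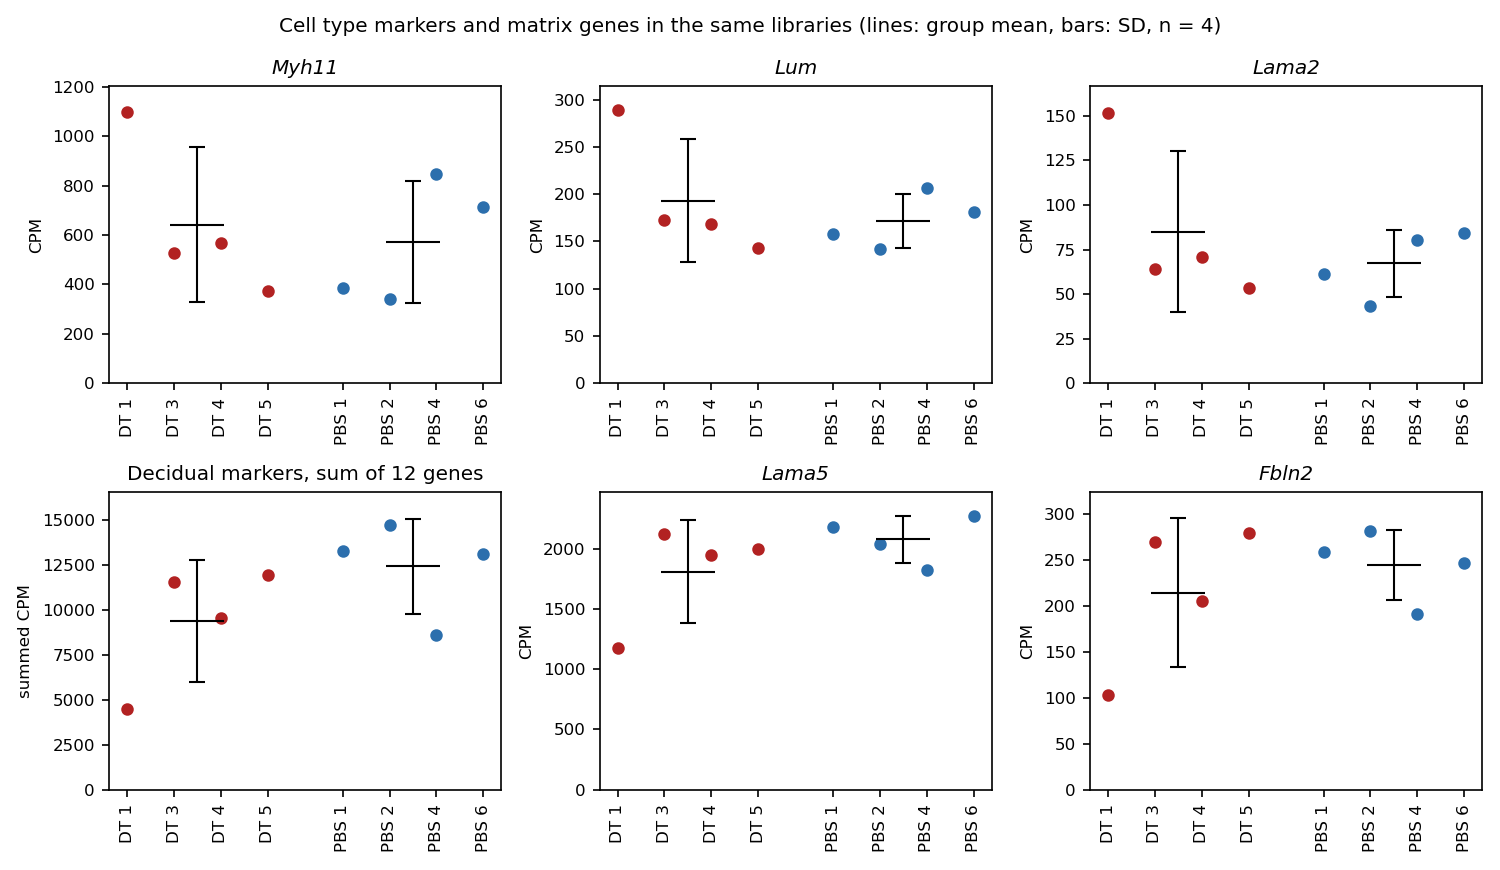
CPM by library (points, with group mean and SD, n = 4) for the muscle marker Myh11 beside Lum and Lama2 (top), and for the sum of 12 decidual markers beside Lama5 and Fbln2 (bottom). DT 1 is the highest library in the top row and the lowest in the bottom row.

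Without DT 1, PBS 1 and PBS 2, which leaves 3 DT and 2 PBS libraries, most log2 fold changes of the matrix genes were negative. They were negative in 33 of the 40, 21 genes took the other sign than with all libraries, and the median was -0.18. The share of negative values over all genes was not counted in this fit. A lean of the matrix genes therefore cannot be told from a lean of all genes. No gene passed an adjusted p of 0.05 in edgeR, against 0.264% of genes higher and 0.00432% lower. Before adjustment (p under 0.05), 10 genes were lower and 0 were higher, against 2.8% and 4.32% of all 23130 genes. The 10 were Col1a2, Col6a2, Col6a3, Lama2, Lama4, Hspg2, Col15a1, Col18a1, Postn and Smoc1, at -0.79 (Col6a3) to -0.26 (Col18a1). Their smallest adjusted p was 0.201, for Col15a1 at -0.55. In the same libraries Myh11 stood at 374 to 569 CPM in DT and at 713 and 849 CPM in PBS without overlap, and its part was not tested. Over all alternatives, 11 of the 40 genes kept 1 sign, negative for Smoc1, Lamc1, Lama5, Col4a1, Col4a2, Col6a3, Postn and Sparc and positive for Col14a1, Col8a1 and Tnc.

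Levels of different genes were compared per length, as CPM per kilobase of merged exons, with the longest annotated transcript as the other length. In PBS, Sparc had the highest mean at 689 CPM per kilobase (1134 by the longest transcript). Col1a1 followed at 566 (627), Col3a1 at 317 (559.5) and Lamc1 at 312 (339). Col4a1 stood at 239 (269.7) and Col1a2 at 207 (481). The next levels were 182 for Lama5, 171 for Lamb2, 169 for Col4a2 and 166 for Col6a1. Bgn stood at 108, or 247 by the longest transcript. The lowest were Lama2 at 4.11, Tnc at 2.9 and Col8a1 at 1.17. The 6 fibrillar collagens made up 27.6% of the summed per-length level of the 40 genes in PBS, or 30.4% by the longest transcript.

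Ratios between chains of 1 protein varied least in the type IV and type VI pairs whose start regions are shown above. The per-length ratio of Col4a1 to Col4a2 was 1.4996, 1.365, 1.398 and 1.357 in DT 1, 3, 4 and 5 and 1.380, 1.403, 1.447 and 1.439 in PBS 1, 2, 4 and 6. Its highest and lowest values differed by 1.11-fold, whereas the chains alone varied by 1.39-fold and 1.45-fold. Col6a1 to Col6a2 averaged 2.01 in DT and 1.89 in PBS and varied by 1.16-fold, with the chains alone at 2.10-fold and 1.81-fold. The type I ratio, Col1a1 to Col1a2, was looser: 3.75, 2.91, 3.45 and 3.08 in the DT libraries and 2.44, 2.38, 3.33 and 2.68 in the PBS libraries. PBS 4 lay within the DT range. Means were 3.30 ± 0.375 and 2.71 ± 0.432 (SD, n = 4 each), and by the longest transcript the PBS mean was 1.29, so the absolute ratio depends on the length used. PBS 1 and PBS 2 were the 2 lowest libraries, and without them and DT 1 the means were 3.148 and 3.003. Col3a1 to Col1a1 averaged 0.510 in DT and 0.575 in PBS, and 0.514 and 0.513 without the same 3 libraries.

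Laminin proportions stood apart in 1 library. Lamb2 to Lamb1 stood at 4.64 in DT 1 and at 7.83 to 11.98 in the other 7. Lama4 to Lama5 stood at 0.149 in DT 1 and at 0.0448 to 0.0771 in the other 7. Group means were 0.0745 and 0.0624 for the latter (0.0497 and 0.0694 without DT 1, PBS 1 and PBS 2), and the groups overlapped in all 6 ratios.

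**Figure D5:**
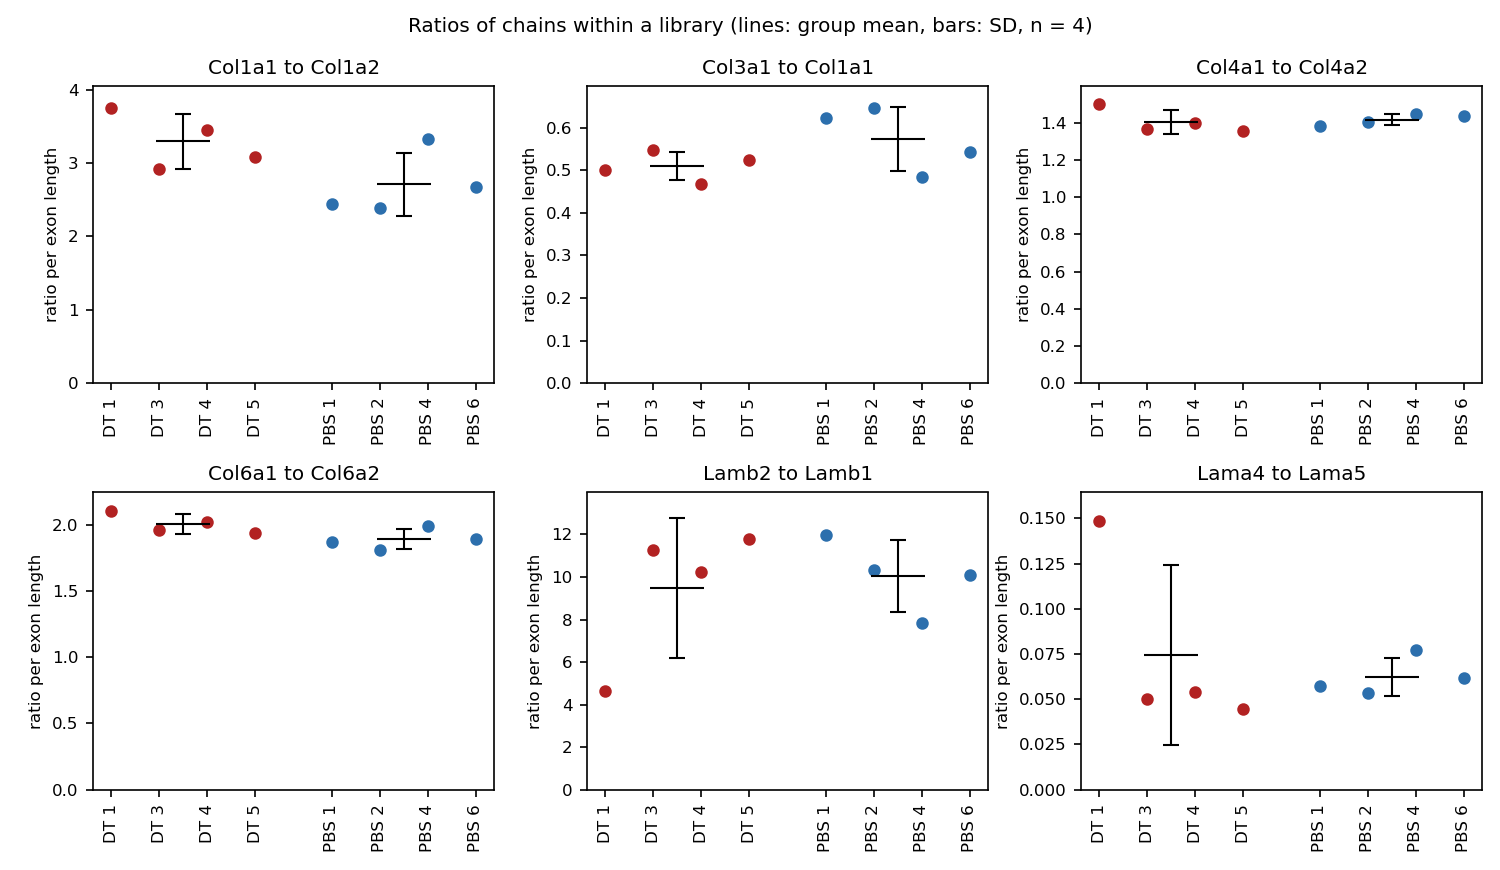
Per-length ratio of 2 chains within each library (points, y axis from 0), with group means and SD (n = 4). The type IV and type VI ratios are nearly flat across libraries, and DT 1 stands apart in both laminin ratios.

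Other genes of matrix biology were described from 4 lists of processing enzymes, receptors, further collagens and laminins, and further glycoproteins. Of 129 such genes 126 were tested. EdgeR called 0 of them, with 6 genes up and 5 down before adjustment (p under 0.05), against 4.72% and 3.98% of all genes tested. DESeq2 called 1, Thbs1. Of the 126 genes, 4 lay wholly higher and 2 wholly lower in DT, against 3.33% and 1.73% of all genes tested. Over the 126 genes 79 log2 fold changes were positive and 47 negative, with a median of 0.09 against 0.01 over all genes tested. Without DT 1, PBS 1 and PBS 2 most of the 126 were negative. In that edgeR fit 0 were called, with 8 up and 14 down before adjustment, against 4.32% and 2.8% of all genes. Thrombospondin-1 (Thbs1), a matricellular protein that can activate TGF-beta, was closest to the threshold, at 187, 150.4, 139 and 159 CPM in DT 1, 3, 4 and 5 and 96.1, 80.2, 108 and 90.6 CPM in PBS 1, 2, 4 and 6. All DT libraries lay above all PBS libraries. Its log2 fold change was 0.76 ± 0.12, with an adjusted p of 0.0558 in edgeR and 3.9e-06 in DESeq2. Its adjusted p in edgeR ran from 0.0539 to 0.227 when 1 library was left out, and without DT 1, PBS 1 and PBS 2 its log2 fold change was 0.59.

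Of 28 enzymes and chaperones that process and cross-link collagen, 1 was higher and 0 were lower before adjustment (p under 0.05), with a median log2 fold change of -0.04. Loxl1, a lysyl oxidase, had a log2 fold change of 0.37 ± 0.13, and P4hb, a prolyl hydroxylase subunit, -0.49 ± 0.26. Of 23 matrix receptors 2 were higher and 2 lower, with a median of 0.05. Syndecan-3 (Sdc3) stood at 81.6, 73.8, 69.9 and 71 CPM in the DT libraries and 64.7, 65.3, 60.2 and 57.9 CPM in the PBS libraries and did not overlap between groups, and nor did Itga11, a collagen-binding integrin chain, with a log2 fold change of 0.72 ± 0.25. Integrin chains Itga1 and Itgav had values of -0.62 ± 0.23 and -0.44 ± 0.18, with PBS 1 and PBS 2 as their 2 highest libraries. Without DT 1, PBS 1 and PBS 2 the log2 fold changes were 0.28 for Sdc3, 0.22 for Itga11, -0.17 for Itga1, -0.12 for Itgav, 0.15 for Loxl1 and -0.03 for P4hb. Of 31 further collagens and laminins tested 0 were higher and 1 lower, with 25 positive and 6 negative log2 fold changes and a median of 0.27. Without DT 1, PBS 1 and PBS 2 this lean was reversed, and most of the 31 were negative. The 1 lower gene with all libraries was Col2a1, the cartilage collagen. It stood at 1.77 and 6.02 CPM in PBS 1 and PBS 2 and at 0.27 CPM or less in the other 6. Without DT 1, PBS 1 and PBS 2 its log2 fold change was 0.84, at means of only 0.21 CPM in DT and 0.12 CPM in PBS. Of 44 further glycoproteins tested 3 were higher, Thbs1 included, and 2 lower, with a median of 0.08. Ccn4, a matricellular growth factor relative, was lower in DT without overlap (-0.60 ± 0.22), and Mfap2, a microfibril protein, had a value of 0.57 ± 0.21. PBS 1 and PBS 2 were the 2 highest libraries for Ccn4 and the 2 lowest for Mfap2, and without them and DT 1 the values were -0.16 and 0.18. Besides Thbs1, the smallest edgeR adjusted p among the genes named from these lists was 0.391, for Sdc3.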

How the data were processed

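Whole-uterus RNA from 4 DT and 4 PBS females was sequenced as paired reads of about 75 bases, with RNA integrity numbers of 8 to 10, per the labels' protocols. The values the authors deposited are raw counts of reads, 1 per gene and library. The submitters' processing notes name build GRCm38 and the tools HISAT2, featureCounts, Trimmomatic, DESeq2 and SAMtools, without roles. Annotation release, strand setting and treatment of shared reads were not given there, so reads of overlapping genes could not be told apart.

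Of 49585 gene IDs, 49326 matched GENCODE M21 and the other 259 held 0.076% of counts. Counts were tested in R 4.3.3 with edgeR 4.0.16 (filterByExpr with a minimum count of 10, TMM, robust quasi-likelihood, two-sided, treatment as the only term) over 22693 genes, with Benjamini-Hochberg adjustment over all of them and a threshold of 0.05. DESeq2 1.42.0, limma 3.58.1 voom, other scalings, no filter, a replicate block and fewer libraries were the alternatives. The edgeR, DESeq2 and voom fits were checked on simulated counts. Log2 fold changes are DT minus PBS with their SE. CPM values use TMM-scaled library sizes. Replicates are females, and no pair of the 28 library pairs agreed within sampling noise (smallest chi-square per degree of freedom 28.8).

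The 40 genes, their sub-groups and all lists were chosen with earlier results of these data known. Values in every library are given for the fibrillar collagens, Col4a1, Col4a2, the 10 highest genes per length in PBS and the 8 smallest p-values. Up to 4 genes per pathway list with the smallest p were eligible to be named. Medians and counts over lists are descriptions without a test.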

Additional observations from a re-analysis of the deposited data

Results flagged for a closer look

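The ratio of Lama4 to Lama5 per exon length was 0.149 in DT 1, whereas the other 3 DT-labelled libraries stood at 0.0448 to 0.0539, so that DT 1 lay far from the rest of its group. This was the only one of 94 group values, over the 40 genes, the 6 chain ratios and the fibrillar to basement membrane difference, with a library that far from its group. Chance gives about 1 in 20, so 1 flag among 94 is fewer than chance alone would give. In DT 1 Lama4 was at its highest and Lama5 at its lowest of 8 libraries.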

How the results depend on the processing

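Smoc1, Lamc1, Lama5, Col4a1, Col4a2, Col6a3, Postn, Sparc, Col14a1, Col8a1 and Tnc kept their sign in all alternatives, and the other 29 did not. Smoc1 passed the threshold only in DESeq2, where 1 matrix gene was called lower, and its adjusted p ran from 0.000127 there to 0.996 with the replicate block. Under that block 0.996 was also the smallest adjusted p of all genes tested, so it says nothing of Smoc1 in particular. Over all genes DESeq2 called 275 higher and 58 lower against 73 and 1 in edgeR, library totals alone gave 2 lower, and leaving out 1 library gave 0 to 115 higher and 0 to 5 lower. Thbs1 was the 1 gene of the pathway lists called higher in DESeq2 and, without the low-count filter, 1 was called in edgeR, again Thbs1. Leaving out PBS 1 and PBS 2 left 0 genes called higher. The cause of these shifts was not tested.

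Replicate numbers 1 and 4 occur in both groups. With the replicate block, which rests on these 2 pairs, 0 genes were called in either direction. Deviations of same-numbered libraries correlated at -0.597 (number 1) and 0.377 (number 4). Differently numbered libraries correlated from -0.70 (DT 5 with PBS 4) to 0.64 (DT 5 with PBS 1). With so wide a range, the 2 same-numbered values cannot show whether the numbers pair the libraries. Under the block these log2 fold changes changed sign: Col1a2 0.042, Lama4 0.031, Col15a1 0.13, Col18a1 0.035 and Eln -0.42.

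Scaling by library totals alone moved the median over all genes from 0.01 to 0.12 and the split of matrix genes from 22 positive and 18 negative to 30 and 10, with a changed sign at Col1a2 0.063, Col5a2 0.032, Col5a3 0.081, Lama4 0.022, Lamb2 0.078, Col15a1 0.029, Col18a1 0.095 and Bgn 0.078. Hspg2, at 0.01, became -0.0039 in DESeq2 and with RLE scaling and -0.036 in limma voom. Without PBS 1 and PBS 2 the median over the basement membrane genes was -0.18, and the signs changed for Col1a1 -0.060, Col3a1 -0.071, Col5a1 -0.15, Col12a1 -0.10, Col16a1 -0.062, Col6a1 -0.081, Col6a2 -0.14, Lamb1 -0.050, Nid2 -0.20, Hspg2 -0.14, Eln -0.16, Lox -0.056, Lum -0.0055 and Fn1 -0.098. Without DT 1, PBS 1 and PBS 2 the medians were -0.25 (fibrillar) and -0.17 (basement membrane), and the signs changed for Col1a1 -0.25, Col3a1 -0.25, Col5a1 -0.27, Col5a3 0.030, Col12a1 -0.19, Col16a1 -0.25, Col6a1 -0.28, Col6a2 -0.30, Lama2 -0.39, Lamb1 -0.34, Nid1 -0.067, Nid2 -0.17, Hspg2 -0.36, Fbn1 0.010, Fbln1 -0.11, Fbln2 0.20, Lox -0.14, Dcn -0.033, Lum -0.26, Fn1 -0.18 and Vcan -0.10. When 1 library was left out in turn, 20 genes changed sign at least once, with ranges of Col1a2 -0.16 to 0.041, Col3a1 -0.085 to 0.18, Col5a1 -0.035 to 0.18, Col5a3 -0.11 to 0.096, Col6a1 -0.029 to 0.28, Col6a2 -0.087 to 0.19, Lama2 -0.096 to 0.51, Lama4 -0.36 to 0.0026, Lamb1 -0.11 to 0.32, Lamb2 -0.11 to 0.054, Nid2 -0.057 to 0.21, Hspg2 -0.21 to 0.14, Col15a1 -0.32 to 0.019, Col18a1 -0.17 to 0.035, Eln -0.044 to 0.30, Fbln2 -0.35 to 0.043, Lox -0.063 to 0.091, Lum -0.088 to 0.29, Bgn -0.13 to 0.065 and Fn1 -0.081 to 0.10.

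Lengths of the longest transcript in place of merged exons gave a fibrillar share of 30.4% and PBS ratios of 1.29 (Col1a1 to Col1a2), 0.916 (Col3a1 to Col1a1), 1.56 (Col4a1 to Col4a2), 1.19 (Col6a1 to Col6a2), 6.34 (Lamb2 to Lamb1) and 0.125 (Lama4 to Lama5). The gap between fibrillar and basement membrane genes, 0.09, was 0.025 without DT 1, PBS 1 and PBS 2, an alternative chosen after seeing the data. What sets the spread between libraries was not tested.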
